A study of Mus musculus with 13 samples.

Results

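The mitotic kinesin and spindle genes described here are 10 named mouse genes, Kif4, Kif11, Kif14, Kif18b, Kif20a, Kif22, Kif23, Kif2c, Tpx2 and Prc1, of 21887 protein-coding genes with a position in the reference table. Their sites are the peaks of 12 deposited lists that lie in the gene span or within 10 kb on each side. That gave 320 of 563452 peaks, which joined into 68 of 114651 sites, 9 of them at a gene start and 59 elsewhere. A site is a set of peaks of any of the 12 libraries joined where they share at least 1 bp, and a start site overlaps the window of 1 kb on each side of the start of transcription.

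The peaks come from chromatin immunoprecipitation and sequencing in NU1 cells, wild-type mouse urothelial cells that became immortal spontaneously in culture, so every group comes from 1 cell line. STAG1, STAG2 or CTCF was precipitated from proliferating cells in complete medium and from quiescent cells, which were grown to confluence and then given 1 uM rosiglitazone, an activator of PPAR gamma, and 0.5 uM erlotinib, an inhibitor of the EGF receptor kinase. Each of the 6 groups has 2 biological replicates. A list held between 34281 and 71757 peaks, and since the lists hold no read totals the depth is unknown. Peak lists carry no expression, so the cell type could not be checked against its markers and nothing here measures transcription of these genes.

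Cohesin is a ring-shaped complex that extrudes DNA loops and ties sister chromatids together, and each ring carries either STAG1 or STAG2. CTCF binds DNA through its zinc fingers and stops cohesin that slides along it. The 10 genes encode motors and crosslinkers that build the mitotic spindle and then divide the cell. They belong to the late cell cycle genes, which the DREAM complex represses in quiescent cells, commonly through a short promoter element named the cell cycle genes homology region (CHR), often with CCAAT boxes close by. The study's title names STAG2, DREAM and quiescence of the urothelium as its subject.

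The starts fell into 3 kinds. At Kif11, Kif18b and Kif23 all 12 libraries had a peak within 1 kb of the start. At Prc1, Kif22, Kif4, Tpx2 and Kif20a between 1 and 10 libraries had one. At the listed starts of Kif14 and Kif2c no library had one. A peak in all 12 libraries was called at 35.7% of all protein-coding genes and a peak in none at 33.0%, so 3 and 2 of 10 lie near those shares. Both STAG and CTCF peaks were found at 6 of 10 starts, against 57.6% of genes, a STAG protein without CTCF at 2, Kif20a and Kif22, against 7.39%, and CTCF without STAG at none, against 2.04%. The median gene of the 10 had a start peak in 5.5 of 12 libraries, against 8 over all genes.

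**Figure D1:**
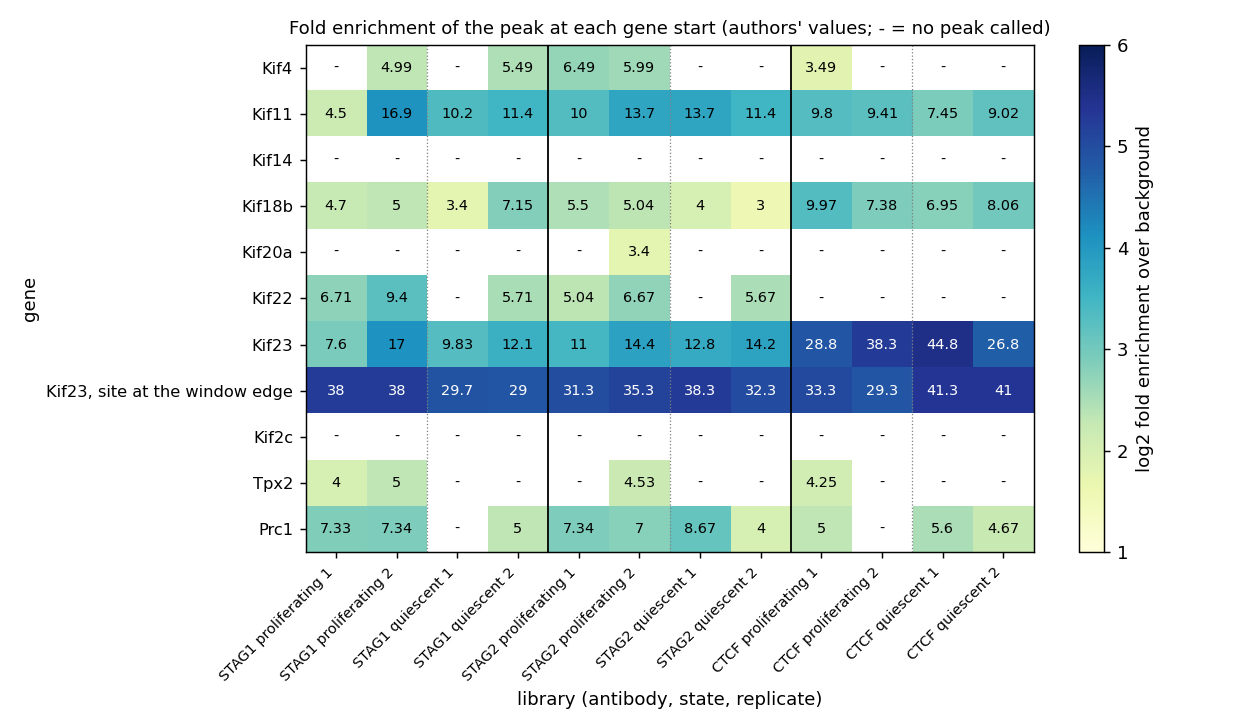
Fold enrichment over background at the peak of each gene start (rows) in each of the 12 libraries (columns, by antibody, state and replicate), as the authors' peak caller gave it, with the colour on a log2 scale and a dash where no peak was called. Kif11, Kif18b and Kif23 are filled in all 12 columns, Kif14 and Kif2c in none, and Kif23 has a further site whose edge touches the start window.

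The starts that carry the peaks can be set beside their promoter sequences, from 250 bases before to 50 bases after the start, as RefSeq gives them for GRCm38.p6, the same build as mm10. The table held 8 of the 10 genes. The sequences shown belong to the 5 genes whose start had STAG2 in at least 3 of 4 libraries, and to Kif2c, which had no peak at its listed start. Each is written 5′ to 3′ along the gene, with capitals for a CHR match (TTTGAA or TTCGAA, either strand) and for a CCAAT box (CCAAT, either strand).
Kif11 (chr19:37376132-37376431, strand +): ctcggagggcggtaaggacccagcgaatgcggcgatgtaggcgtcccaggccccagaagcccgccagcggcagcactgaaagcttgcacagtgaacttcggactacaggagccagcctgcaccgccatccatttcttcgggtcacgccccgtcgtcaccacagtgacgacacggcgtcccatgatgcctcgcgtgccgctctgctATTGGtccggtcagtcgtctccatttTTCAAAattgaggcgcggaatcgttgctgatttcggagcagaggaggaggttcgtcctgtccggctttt
Kif23 (chr9:61946750-61947049, strand -): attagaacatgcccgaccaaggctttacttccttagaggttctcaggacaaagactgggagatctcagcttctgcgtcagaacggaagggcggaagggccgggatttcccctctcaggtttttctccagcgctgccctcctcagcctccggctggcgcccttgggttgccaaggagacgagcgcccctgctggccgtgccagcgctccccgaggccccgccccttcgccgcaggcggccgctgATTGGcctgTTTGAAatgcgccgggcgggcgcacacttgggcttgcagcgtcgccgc
Kif18b (chr11:102925075-102925374, strand -): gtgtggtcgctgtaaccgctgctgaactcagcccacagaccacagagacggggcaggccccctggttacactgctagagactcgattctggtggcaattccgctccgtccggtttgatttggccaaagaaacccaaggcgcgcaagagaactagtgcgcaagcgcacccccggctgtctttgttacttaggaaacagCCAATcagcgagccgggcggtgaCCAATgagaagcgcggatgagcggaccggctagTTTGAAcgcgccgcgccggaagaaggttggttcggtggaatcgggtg
Prc1 (chr7:80294201-80294500, strand +): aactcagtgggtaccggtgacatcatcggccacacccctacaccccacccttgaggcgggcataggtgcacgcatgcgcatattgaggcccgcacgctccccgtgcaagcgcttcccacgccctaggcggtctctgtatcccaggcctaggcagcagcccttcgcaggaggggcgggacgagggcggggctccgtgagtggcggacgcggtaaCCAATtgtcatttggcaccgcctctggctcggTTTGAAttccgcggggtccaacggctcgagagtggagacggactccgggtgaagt
Kif22 (chr7:127042371-127042670, strand -): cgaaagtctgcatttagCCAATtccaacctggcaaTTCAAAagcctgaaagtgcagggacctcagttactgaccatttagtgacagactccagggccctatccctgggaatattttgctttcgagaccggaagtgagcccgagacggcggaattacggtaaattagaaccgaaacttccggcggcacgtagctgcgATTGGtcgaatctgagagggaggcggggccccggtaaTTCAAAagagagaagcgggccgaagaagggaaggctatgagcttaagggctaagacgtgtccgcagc
Kif2c (chr4:117178723-117179022, strand -): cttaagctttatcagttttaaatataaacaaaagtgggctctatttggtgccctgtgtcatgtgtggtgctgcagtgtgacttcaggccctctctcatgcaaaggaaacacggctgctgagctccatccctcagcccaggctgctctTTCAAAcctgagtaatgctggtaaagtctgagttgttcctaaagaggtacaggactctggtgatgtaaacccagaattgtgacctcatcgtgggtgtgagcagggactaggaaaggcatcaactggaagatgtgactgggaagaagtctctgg

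The table gives these 8 genes 9 promoters, since Prc1 has 2 listed starts, the first of which is described here. The promoters of all 8 genes held a CHR match, against 19.2% of its 32851 promoters, and 7 of 8 held a CCAAT box, against 37.4%. Kif2c was the one without CCAAT. Counting the start base as 0, the CHR match began at base 2 in Kif23, 3 in Kif18b, -5 in Prc1, -17 in Kif22, -19 in Kif11 and 19 in Kif4. From the second start of Prc1 it began at -30. These 6 lay within 30 bases of the start, as in 3.18% of all promoters, a distance chosen after the positions were seen. In Kif14 and Kif2c the match began farther away, at -228 and -103. Kif22 held a second match at -215.

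The 2 genes without a start peak also had other base composition there. The promoter sequences of Kif14 and Kif2c held 3 and 2 CpG dinucleotides, and the other 6 held between 19 and 28, against a median of 7 over all promoters. At most 3 CpG were found in 31.4% of all promoters, so such a low number is common. The listed start of Kif14 lies 1547 bp inside the gene span, and that of Kif2c 3852 bp, so each gene span has another 5′ end. An E2F core (TTCGCG or TTGGCG or TTCCCG or TTTGGC or TTTCGC, either strand) was found in 3 of 8, Kif4, Kif18b and Prc1, against 32.9% of promoters. In Kif18b its matches on opposite strands overlapped. The CTCF core CCNNNAGGNGGC, found in 3.43% of promoters on either strand, was in none of the 8 windows. Only exact matches were counted. By library, CTCF start peaks were called at 48.0% to 53.9% of all genes, so the lack of this rare match says little about CTCF binding at these starts.

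**Figure D2:**
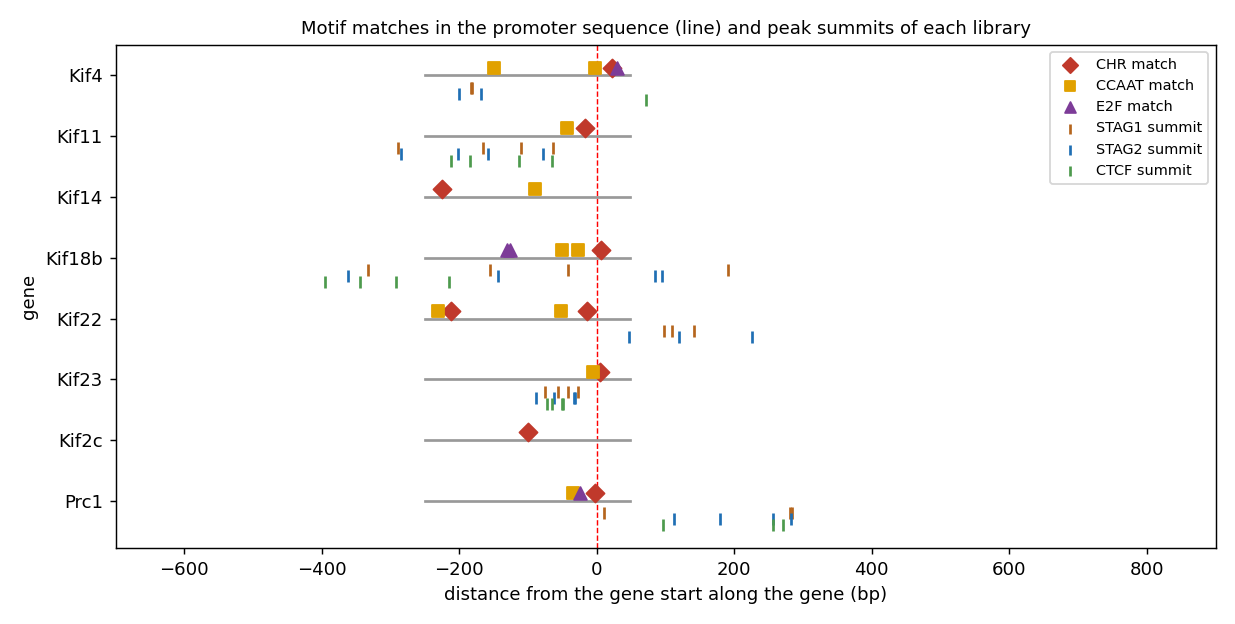
Positions of CHR, CCAAT and E2F matches in the 300 bases of each promoter (grey line) and of the peak summits of single libraries (ticks, by antibody), in bp from the gene start along the gene, for the 8 genes with a promoter entry. CHR matches lie within 30 bases of the start in 6 genes, and Kif14 and Kif2c have no summit in the plotted range near their listed starts.

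Kif11 encodes the plus-end motor that pushes the spindle poles apart. Its start site on chromosome 19, from 37375704 to 37376798 in mm10, had STAG2 fold enrichments of 10.0 and 13.7 in proliferating and 13.7 and 11.4 in quiescent cells. STAG1 had 4.5 and 16.9 in proliferating and 10.2 and 11.4 in quiescent cells, and CTCF had 9.8 and 9.41, then 7.45 and 9.02. For STAG1 and STAG2 the ranges of both states overlapped, and for CTCF both quiescent values were the lower ones. Here and at the sites below, how many of all sites show such an order was not counted. STAG1 proliferating replicate 1 was the lowest of all, at percentile 8.91 of the folds in its own list, while the STAG2 peaks lay between percentiles 58.2 and 80.0 of theirs. None of the 7 sites of this locus lay at the start of another gene.

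Kif23, also known as MKLP1, is the motor of centralspindlin, which organises the midzone before the cell divides. At its start, on chromosome 9 from 61946111 to 61947181, CTCF had fold enrichments of 28.8 and 38.3 in proliferating and 44.8 and 26.8 in quiescent cells, all above the CTCF values at the starts of the other 9 genes. STAG2 had 11.0 and 14.4, then 12.8 and 14.2, and STAG1 had 7.6 and 17.0, then 9.83 and 12.1. Summits of the 12 libraries lay between 27 and 88 bp from the start. In their own lists the CTCF peaks were between percentiles 87.2 and 94.9 and the STAG2 peaks between 62.9 and 81.4.

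A further strong site lay just before Kif23, from 61947799 to 61948535. It overlaps the start window by 1 bp and so counts as a start site, but its summits were 1344 to 1409 bp from the start. It too was called in all 12 libraries, with STAG2 fold enrichments of 31.3 and 35.3 in proliferating and 38.3 and 32.3 in quiescent cells, STAG1 of 38.0 and 38.0, then 29.7 and 29.0, and CTCF of 33.3 and 29.3, then 41.3 and 41.0. Both quiescent values were the lower ones for STAG1 and the higher ones for CTCF, and the STAG2 ranges overlapped. These orders of the states were not tested. Within each list, this site was stronger than the one at the start in 4 of 4 STAG2 and 4 of 4 STAG1 libraries, and in 2 of 4 CTCF libraries. The order of both sites was thus the same in every STAG library and mixed in the CTCF libraries.

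Kif18b encodes a plus-end motor that limits the length of astral microtubules. All 12 libraries had a peak at its start, on chromosome 11 from 102924702 to 102925736, but those of STAG1 and STAG2 were weak, none above percentile 40.5 of its list. STAG2 had fold enrichments of 5.5 and 5.04 in proliferating and 4.0 and 3.0 in quiescent cells, between percentiles 0.12 and 29.1 of their lists, with both quiescent values below both proliferating ones. STAG1 had 4.7 and 5.0, then 3.4 and 7.15, and CTCF had 9.97 and 7.38, then 6.95 and 8.06. Fold enrichments of different lists were not tested against each other, since each belongs to its own list.

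Prc1 encodes the crosslinker of antiparallel microtubules to which Kif4 binds in the midzone. Its start site, on chromosome 7 from 80294111 to 80295263, had STAG2 in all 4 libraries, with fold enrichments of 7.34 and 7.0 in proliferating and 8.67 and 4.0 in quiescent cells. STAG1 had 7.33 and 7.34 in proliferating cells and 5.0 in quiescent replicate 2, with no peak in quiescent replicate 1. CTCF had 5.0 in proliferating replicate 1, none in replicate 2, and 5.6 and 4.67 in quiescent cells. The STAG2 ranges of the states overlapped.

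Kif22, or Kid, is a motor that binds chromosome arms and pushes them toward the cell equator. Its start site on chromosome 7, from 127041993 to 127042566, was the only start of the 10 with cohesin in 6 libraries and CTCF in none of 4. STAG1 had fold enrichments of 6.71 and 9.4 in proliferating cells and 5.71 in quiescent replicate 2, and STAG2 had 5.04 and 6.67 in proliferating cells and 5.67 in quiescent replicate 2. Neither protein had a peak in its quiescent replicate 1. This set of calls over the 12 libraries was shared by 7 of the 21887 genes, Kif22 included. The sets of the other partly called genes were shared by 2 genes for Tpx2, 3 for Kif4, 9 for Prc1 and 111 for Kif20a. Since 12 libraries allow many partial sets, a small number here says little about these genes. A far stronger site at the other end of Kif22, called in all 12 libraries with STAG2 fold enrichments from 19.2 to 23.2, lies at the start of the neighbour Maz, so a count that takes both gene ends lets Kif22 borrow it.

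Kif4, a chromokinesin that works with Prc1, had weak start peaks. STAG2 had fold enrichments of 6.49 and 5.99 in the proliferating libraries and no peak in either quiescent one, which makes Kif4 the 1 gene of 10 with a lost STAG2 start site, against 0.676% of all genes. STAG1 had 4.99 in proliferating replicate 2 and 5.49 in quiescent replicate 2, and CTCF had 3.49 in proliferating replicate 1. The site, on chromosome X from 100625646 to 100626631, also covers the start of the neighbour Pdzd11, and peaks there cannot be assigned to one of these genes. The STAG2 peaks lay at percentiles 37.3 and 39.6 of their lists.

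Tpx2, which nucleates spindle microtubules and activates the kinase Aurora A, had a peak at one gene end in 4 libraries. The table gives no strand for Tpx2 or Kif20a, so both ends were taken. At the end on chromosome 2 from 152847749 to 152848422, STAG1 had fold enrichments of 4.0 and 5.0 in proliferating and no peak in quiescent cells, the 1 lost STAG1 start site of the 10 genes, against 1.21% of all genes. STAG2 had 4.53 in proliferating replicate 2 alone and CTCF 4.25 in proliferating replicate 1 alone. All 4 peaks were in proliferating cells, but none of them was above percentile 27.1 of its list.

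Kif20a encodes a motor needed at the end of cell division. It had a single peak at a gene end, in STAG2 proliferating replicate 2, as 3.22% of genes had in 1 library only, with a fold enrichment of 3.4 at percentile 1.55 of its list. That end is shared with Brd8. Kif2c, which takes microtubules apart at their ends and at centromeres, had no start peak in any library, and neither had Kif14, a motor of cytokinesis. With the 5′ end of the gene span as the start, chosen after seeing the data, Kif2c again had none, while Kif14 had CTCF in all 4 libraries and STAG1 in proliferating replicate 2, and no STAG2. These CTCF calls of Kif14 come from separate sites. The one from 136464902 to 136465651, before the span, had CTCF in all 4 libraries. The one at the 5′ end itself, from 136466195 to 136466832, had it in the proliferating libraries alone.

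Counting genes with a start peak in both libraries of a group, STAG2 held 6 of 10 in proliferating cells, against 55.0% of all genes, and 4 of 10 in quiescent cells, against 55.0%. The 6 were Kif4, Kif11, Kif18b, Kif22, Kif23 and Prc1, and the 4 lacked Kif4 and Kif22. STAG1 held 6 of 10, with Tpx2 in place of Kif4, against 48.9% of all genes, and in quiescent cells 3 of 10, Kif11, Kif18b and Kif23, against 47.1%. CTCF held those 3 in proliferating cells, against 49.1% of all genes, and with Prc1 4 in quiescent cells, against 44.9%. With 10 genes each of these counts is within a few genes of the share over all genes. The order of the states depended on list length: with the 20000 strongest peaks of every library, STAG2 held 2 starts in each state, and STAG1 held 1 in proliferating and 2 in quiescent cells.

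The smaller STAG1 count in quiescent cells turned on 1 library. STAG1 quiescent replicate 1 had a peak at 3 of the 10 starts and replicate 2 at 6, against 6 and 7 in proliferating cells, and without quiescent replicate 1 the count was 6. Over all genes the shares were 50.8% and 51.9% in the quiescent and 49.5% and 60.1% in the proliferating STAG1 libraries. STAG2 had 6 and 8 starts in its proliferating and 4 and 5 in its quiescent libraries, so these did not overlap. Over all genes the STAG2 libraries had start peaks at 57.5% and 58.5% in proliferating and 59.1% and 56.3% in quiescent cells, which did overlap. For CTCF the counts were 6 and 3, then 4 and 4, where all genes gave 52.7% and 53.9%, then 48.0% and 51.1%, and without proliferating replicate 2 the 6 starts of replicate 1 were held.

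By the stricter rule, a start called in both libraries of one state and in neither of the other, STAG2 lost Kif4 and STAG1 lost Tpx2. Without STAG2 proliferating replicate 1 STAG2 lost 3 starts, and without STAG1 quiescent replicate 2 STAG1 lost 3. With a -log10 q of at least 5 the loss at Tpx2 was no longer called (0 for STAG1), and with 20000 peaks per library neither loss was (0 for both). No start was lost for CTCF, against 1.67% of all genes, and none was gained for STAG1, STAG2 or CTCF, against 0.183%, 0.644% and 0.324%. No start had STAG2 in all 4 libraries with CTCF in none, against 2.19% of all genes. With 2 libraries a group, no test of a single gene was made.

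**Figure D3:**
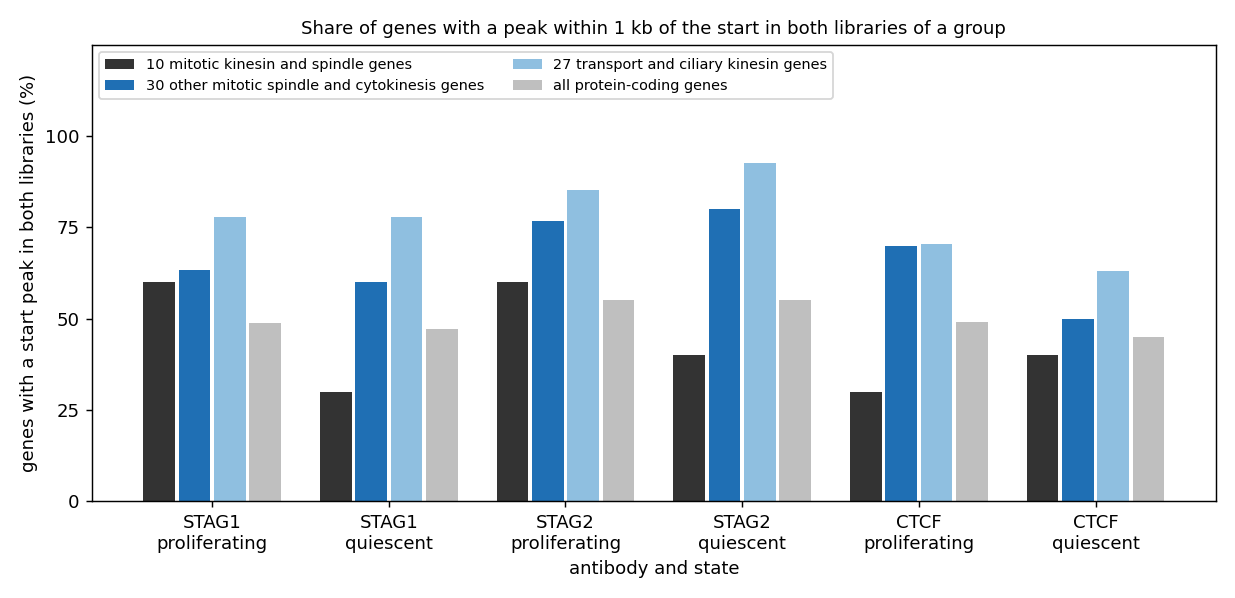
Share of genes (%) with a peak within 1 kb of the start in both libraries of a group, for the 10 genes, 2 written lists and all protein-coding genes, by antibody and state. For STAG2 in quiescent cells the bars stand at 40.0% for the 10 genes, 80.0% for the other spindle genes, 92.6% for transport kinesins and 55.0% for all genes.

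Other spindle genes and other kinesin genes had start peaks more widely than the 10. Of 30 other genes of the mitotic spindle and cytokinesis, such as Aurka, Anln and Racgap1, STAG2 held 23 in proliferating and 24 in quiescent cells. STAG1 held 19 and 18, and CTCF held 21 and 15. Cenpe, Espl1 and Kif2b had a start peak in no library, 3 of 30 against 33.0% of all genes. The median gene of that list had a start peak in 11 libraries. Kif24 lost STAG2 there, 1 of 30 against 0.676% of all genes, and Cdca8 gained it, against 0.644%. Anln, Ect2 and Kif18a lost CTCF, 3 of 30 against 1.67%. Of 27 kinesin and kinesin light chain genes for transport and cilia, STAG2 held 23 and 25, STAG1 21 and 21, and CTCF 19 and 17, with a median of 12 libraries. Kif1a gained STAG2 and Kif5c lost CTCF, 1 of 27 each. Over all genes the shares held were 55.0% and 55.0% for STAG2, 48.9% and 47.1% for STAG1, and 49.1% and 44.9% for CTCF. The 10 genes had the lowest median of these lists, and the difference between lists was not tested.

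Away from the starts, CTCF without cohesin was the most common kind of site over the pooled loci, though not in each locus. Of the 59 sites elsewhere, 36 had CTCF in some library and STAG1 and STAG2 in none, 61.0% against 40.1% of all sites outside start windows and 41.8% of those in the span or flanks of any gene. A further 15 had CTCF and a STAG protein, 25.4% against 32.6%, and 8 had a STAG protein without CTCF, 13.6% against 27.3%. Of the 36, Kif14 held 9, Kif2c 8, Kif11 and Tpx2 5 each, and Kif18b, Kif22 and Kif23 1 each. By library, 9 of the 36 were called in all 4 CTCF libraries and 14 in only 1, of which 11 were in CTCF quiescent replicate 2, the longest list. Sites in 1 library only made up 20 of the 59. Outside the start windows of all genes they made up 19 of 52, against 36.7% of all such sites.

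**Figure D4:**
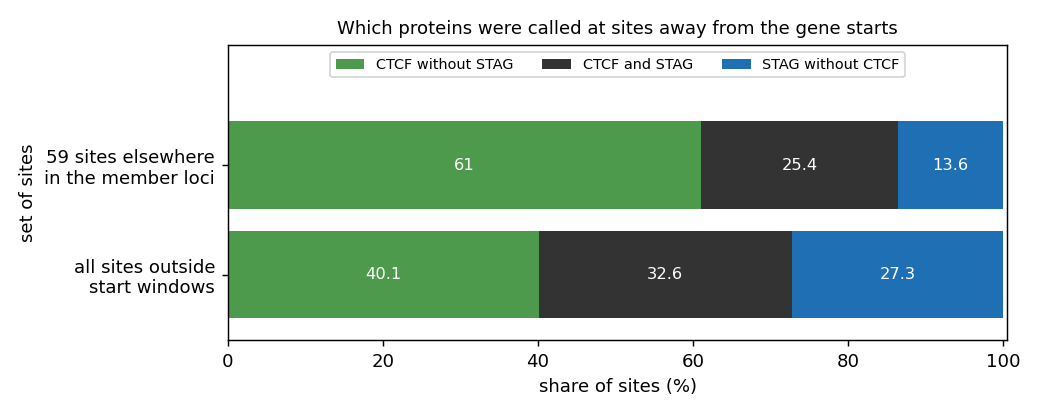
Share (%) of the 59 sites elsewhere in the 10 gene loci, and of all 97644 sites outside start windows, at which CTCF alone, CTCF with STAG1 or STAG2, or a STAG protein alone was called in any library. CTCF without STAG makes up 61.0% of the first and 40.1% of the second.

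STAG2 held 9 of the 59 sites in both proliferating libraries, against 22.8% of all sites outside start windows, and 9 in both quiescent ones, against 17.7%. STAG1 held 12, against 21.5%, and 13, against 18.2%. CTCF held 23, against 33.2%, and 28, against 35.9%. Of the 59 sites, 7 lie at the start of another gene, among them Gdpd2 beside Kif4, Maz and Zg16 beside Kif22, Rplp1 beside Kif23 and Rccd1 beside Prc1, and these are counted with the rest. Without them, as the shares over all sites are counted, STAG2 held 4 and 5 of 52 sites, STAG1 8 and 9, and CTCF 21 and 25. CTCF without STAG then made up 65.4%, CTCF with STAG 21.2% and STAG without CTCF 13.5%. STAG2 shares in these loci were therefore below those over all sites on either count, and CTCF shares above. For the 59 sites the STAG2 difference in quiescent cells was small, 15.3% against 17.7%. None of these differences was tested.

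**Figure D5:**
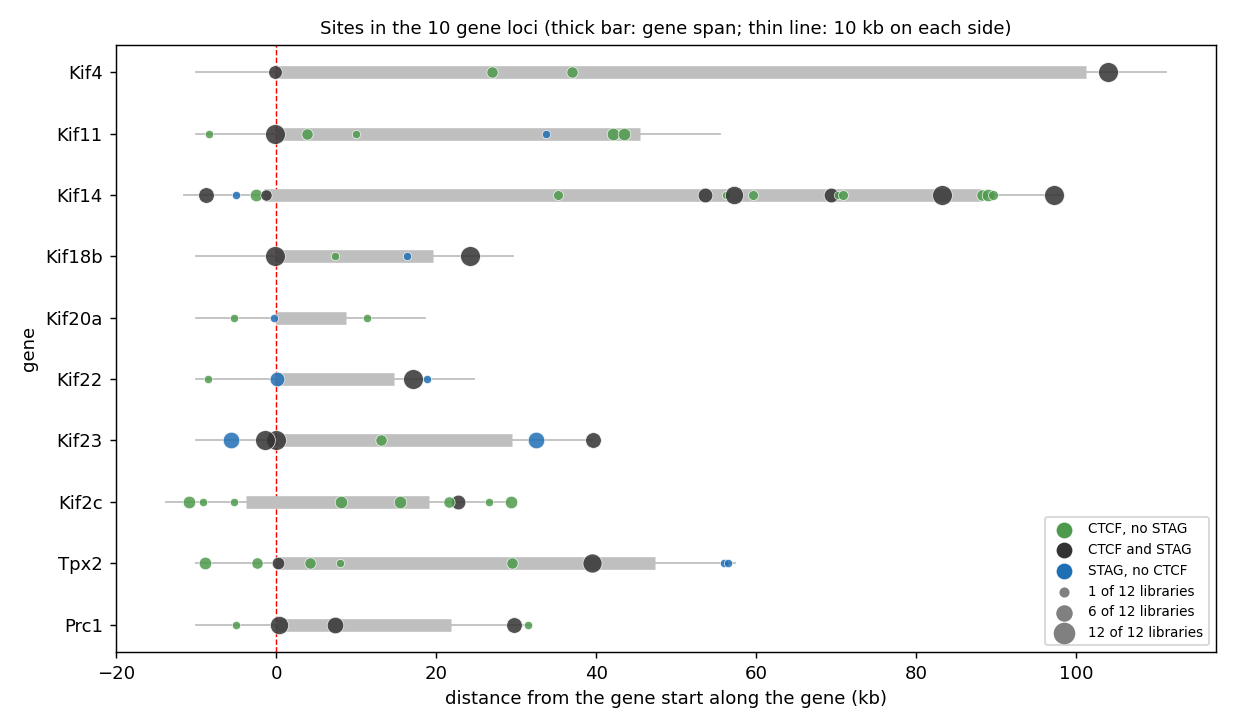
Sites of the 10 loci by distance from the gene start along the gene (kb), coloured by the proteins called and sized by the number of libraries, with the gene span as a thick bar; for Kif20a and Tpx2, without a strand, distances run from the end of lower coordinate. Green points, CTCF without STAG, are spread through the gene spans and flanks, and the large dark points are sites shared by all or nearly all libraries.

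Sites shared by all 12 libraries numbered 3 of 52 outside the start windows of all genes, against 11.1% of all such sites, and 5 of the 59. One lay after Kif18b, from 102900584 to 102901301, with STAG2 fold enrichments of 15.6 and 11.8 in proliferating and 13.4 and 12.3 in quiescent cells, stronger in each list than the start of Kif18b itself. Kif14 had 2, one in its span from 136550790 to 136551622 and one after it from 136564838 to 136565405. At the first STAG1 had 20.0 and 17.8, then 15.5 and 21.5, and STAG2 had 12.3 and 12.1, then 10.6 and 11.8. The others were those at Gdpd2 and at Maz. Kif14 therefore had cohesin and CTCF together within its locus in both states, though not at its listed start.

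Within Tpx2 a site from 152887118 to 152887704 was called in 11 libraries. In 3 of the 4 libraries with a peak at the gene end this site had the higher fold enrichment, and in STAG2 proliferating replicate 2 it had no peak. STAG2 had fold enrichments of 5.99 in proliferating replicate 1, no peak in replicate 2, and 19.5 and 20.0 in quiescent cells. STAG1 had 12.5 and 8.48 in proliferating and 20.5 and 19.0 in quiescent cells, and CTCF had 14.5 and 16.5, then 16.5 and 26.4. For STAG1 both quiescent values lay above both proliferating ones, and for STAG2 both lay above that of proliferating replicate 1. These values come from separate lists and were not tested. The gene end of Tpx2 had peaks in proliferating libraries alone, none above percentile 27.1 of its list. For STAG1 and STAG2 the site in the span of Tpx2 had the higher values in quiescent libraries, while the CTCF values of both states met at 16.5. How many of all sites show such an order of the states was not counted.

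Kif23 had cohesin without CTCF at 2 sites, called in all 8 STAG libraries and in no CTCF library. Of the 52 sites outside all start windows, 1 had STAG2 in all 4 libraries with CTCF in none, against 1.73% of all such sites. The stronger of the 2 sites of Kif23 lies before the gene, from 61952108 to 61952749. It had STAG2 fold enrichments of 10.8 and 11.0 in proliferating and 7.33 and 11.2 in quiescent cells, and STAG1 of 8.19 and 6.99, then 5.61 and 11.2. The weaker one is at the start of Rplp1, a ribosomal protein gene, from 61914086 to 61915046, with STAG2 between 4.03 and 7.33. Kif23 is thus flanked by sites of each kind within 10 kb of its span: cohesin without CTCF, and CTCF with cohesin.

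Some sites were called for STAG1 and not for STAG2, and others for STAG2 and not for STAG1. Neither kind was counted over all sites. One of the latter, in the span of Kif11 from 37409921 to 37410308, had STAG2 in proliferating replicate 1 alone, at 9.98. The former are described next. Before Kif14, from 136458736 to 136459418, STAG1 had fold enrichments of 10.7 and 6.0 in proliferating and 3.67 and 5.34 in quiescent cells, STAG2 had no peak in 4 libraries, and CTCF had one in 3. After Kif23, from 61906873 to 61907435, STAG1 was called in 3 libraries and STAG2 in none, beside CTCF in all 4 at 17.1 to 21.5. In the locus of Kif2c, sites from 117162991 to 117163804 and from 117170400 to 117170968, both in the gene span, had CTCF in all 4 libraries, at 7.98 to 12.5 and at 3.99 to 9.98, and no STAG protein.

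Few sites elsewhere followed the state in both replicates. STAG2 lost 1 of the 59, with fold enrichments of 4.15 and 7.55 in proliferating cells. Of the 52 sites outside the start windows of all genes STAG2 lost 0, against 3.35% of all such sites. The lost one lies at the start of Rccd1 beside Prc1, from 80323913 to 80324469. STAG1 kept a peak there in all 4 libraries. STAG1 lost 1, within Kif14 from 136536949 to 136537476, with 7.48 and 4.0, against 2.17%, while CTCF stayed called there in all 4. CTCF lost 3, all in Kif14, against 1.6%, and of these the one at the 5′ end of the gene span, from 136466195 to 136466832, had 7.14 and 8.4 in proliferating cells. None was gained for STAG1, STAG2 or CTCF, against 0.32%, 0.392% and 3.38%. With a -log10 q of at least 5, and likewise with 20000 peaks per library, STAG1 and STAG2 lost 0 sites and STAG2 gained 1. Single libraries set these counts: without STAG2 proliferating replicate 2 STAG2 lost 5 sites, without STAG1 proliferating replicate 1 STAG1 lost 4, without CTCF proliferating replicate 2 CTCF lost 6, and without CTCF quiescent replicate 1 CTCF gained 11.

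Within Prc1 a site from 80301469 to 80302039 was called for STAG2 in replicate 1 of each state alone, at 7.07 both times, for STAG1 in 3 libraries at 4.67 to 8.01 and for CTCF in 3 at 6.13 to 9.9. In the span of Kif11, 2 sites near its far end, from 37418191 to 37418811 and from 37419506 to 37420155, had CTCF in all 4 libraries, at 5.66 to 14.3 and at 9.06 to 21.5, and no STAG protein. In the span of Kif4, sites starting at 100652764 and 100662812 had CTCF in 3 of 4 libraries, at 7.48 to 24.9 and at 7.48 to 11.5. At each of these 4 CTCF sites quiescent replicate 2, the longest list, gave the highest fold of the CTCF libraries.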

How the data were processed

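Peaks were deposited separately for each library, without pooling of replicates; per the submitters' processing notes the tools were bcl2fastq, BWA, Picard, MACS2 and HOMER on mm10, with versions not given in the sources used here. For every peak the deposited files give the authors' fold over background, the p-value as -log10 p, the q-value as -log10 q, and a score that was not used. The peak names mark library and input as normalised, without saying how. The sample titled input is labelled IgG and was not analysed here. Starts came from the promoter table, which held 17492 of 21887 protein-coding genes; for the rest both gene ends were used. A start was held by a group when both libraries had a peak within 1 kb, sharing at least 1 bp. No test was made: counts stand beside the same count over all genes or sites. The 10 genes and the lists were chosen with earlier results of these data known. The calls were tested on simulated peaks. Python 3.11.15 and pandas 2.3.3 were used. Alternatives were windows of 500 bp and 2 kb, summits, a 5 kb flank, sites joined by summits within 200 bp, a -log10 q of at least 5, the 20000 peaks of highest -log10 p per library, and leaving out each library. All 10 genes are named, and other genes where their start window overlaps a site of these loci or where a count is small.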

Additional observations from a re-analysis of the deposited data

How the results depend on the processing

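Of 206 values recomputed under the alternatives, 157 stayed within 1.5 times the reported count. The 157 include counts of 0 that stayed 0, such as the starts gained for STAG1 and STAG2. With 20000 peaks per library the starts held were 1 in proliferating and 2 in quiescent cells for STAG1, which turns the order of its states, 2 in each for STAG2 and 1 in each for CTCF; no start was then lost (0 for STAG1 and 0 for STAG2), and 1 start had STAG2 in all 4 libraries with no CTCF. With that length the sites elsewhere lost were 0 for STAG1, STAG2 and CTCF, and those gained 1 for STAG1, 1 for STAG2 and 2 for CTCF. With a -log10 q of at least 5, STAG2 held 2 starts in quiescent cells, STAG1 lost 0, and elsewhere STAG1 lost 0, and STAG2 lost 0 and gained 1. With 2 kb windows CTCF lost 1 start, and with a 5 kb flank STAG2 lost 0 sites elsewhere. The cause was not tested, beyond the shorter lists and regions themselves.

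Leaving out 1 library in turn, starts held ranged from 3 to 6 for STAG1 in quiescent cells, being 6 without quiescent replicate 1, and from 3 to 6 for CTCF in proliferating cells, being 6 without replicate 2. Starts lost ranged from 1 to 3 for STAG1 (3 without quiescent replicate 2), from 1 to 3 for STAG2 (3 without proliferating replicate 1, 2 without quiescent replicate 2) and from 0 to 2 for CTCF (2 without proliferating replicate 2); CTCF gained 0 to 1 (1 without proliferating replicate 1), and starts with STAG2 in every library and no CTCF numbered 0 to 1 (1, without STAG2 quiescent replicate 1). Elsewhere, sites lost ranged from 1 to 4 for STAG1, 1 to 5 for STAG2 and 3 to 6 for CTCF, and sites gained from 0 to 1, 0 to 1 and 0 to 11; CTCF gained 11 without quiescent replicate 1. No test was run, so the replicate numbers were not used as a block. The lists hold no read totals, so a missing peak is a peak not called, not a protein shown to be absent.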
